A study of Mus musculus with 3 samples.

Results

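Histone variants are non-allelic forms of the core and linker histones. Many of them are made throughout the cell cycle and placed into chromatin outside DNA replication. H2A.Z marks promoters and enhancers, H2A.X carries the phosphorylation that flags DNA breaks, macroH2A bears a large globular domain and is enriched on repressed chromatin, H3.3 is laid down at active genes and at repeats, and the linker histones H1.0 and H1x bind the DNA between nucleosomes. In embryonic stem (ES) cells H2A.Z and H3.3 occupy both active promoters and the silent promoters of developmental regulators. The 10 genes described here, H2afz, H2afv, H2afx, H2afy, H2afy2, H2afj, H3f3a, H3f3b, H1f0 and H1fx, were taken by symbol, and all 10 had a row among the 15311 genes of the deposited table. Each symbol was chosen for the histone family of its gene and not for a measured value, though with earlier results of these data known.

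Polyadenylated RNA of mouse ES cells was sequenced in 3 strand-specific libraries, 1 labelled K3R3 and 2 labelled wild type (WT). The K3R3 cells carried a transgene for H2A.Z joined at its C-terminal end to yellow fluorescent protein (YFP), with 3 C-terminal lysines changed to arginine, so that they can no longer take ubiquitin. The WT cells carried the same construct with an unmutated H2A.Z. In both groups a CMV promoter under the doxycycline-responsive rtTA system drove the transgene, doxycycline was given at 1 µg/ml, YFP-positive cells were sorted, and a lentiviral hairpin against the 3′ untranslated region (UTR) of endogenous H2A.Z was present. Both groups are male cells labelled V6.5 (129SvJaexC57BL/6), whereas the treatment text names KH2 ES cells as the parent of the transgenic lines. Cells were kept on irradiated mouse embryonic fibroblasts until the final passage, which was done without them. Neither the number of clones behind each line nor separate cultures for the WT replicates is given in the labels, so the p-values here cover the spread between the libraries alone, and that spread may be technical. K3R3 had no replicate.

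The hairpins define what the H2afz counts can and cannot show, so both sequences listed in the labels are printed here in the sense direction of H2afz, 5′ to 3′. Capitals mark the bases that would pair with positions 2 to 8, the seed, of the antisense strand.
sh#2: aacagctgtccagTGTTGGTg
sh#5: aattagccttccaACCAACCa
On genome build GRCm38 with the GENCODE M21 annotation, sh#2 matched chr3:137866491-137866511 and sh#5 matched chr3:137866587-137866607, both on the plus strand, in exon 5 of transcript H2afz-201 and within its 3′ UTR. In the transcript, which is 1069 bases long, these are positions 638 to 658 and 734 to 754. No other variant gene carried either sequence: the longest stretch of sh#2 found in another member's transcripts was 10 bases, in H2afy, and that of sh#5 was 8 bases. The labels do not say which of these hairpins was in the cells that were sequenced. The transgene holds a cDNA and the hairpins lie in the UTR, so coding reads of H2afz can come from the transgene as well as from the endogenous gene. No library without hairpin or transgene was analysed here.

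The table held 24718223 counts for K3R3, against 21614693 and 25426228 for WT replicates 1 and 2. Differences were tested over the 13829 genes whose mean CPM, the count scaled to library size, reached 0.5. In edgeR's quasi-likelihood fit 355 genes had a Benjamini-Hochberg adjusted p under 0.05, 280 higher and 75 lower in K3R3. All 8 ES cell markers had rows, with a summed level of 3695 CPM in K3R3, against 5509 and 4403 CPM in the WT libraries. Of 12 fibroblast markers, 10 had rows, and they summed to 139 CPM in K3R3, against 83.7 and 115 CPM in WT; the other two, Postn and Lum, had none. The 7 primitive endoderm markers summed to 115 CPM in K3R3, against 224 and 231 CPM in WT. The 4 neural markers summed to 97.1 CPM in K3R3, against 64.9 and 81.0 CPM in WT. Of these, 1 lay above both WT libraries, Nes (65.0 CPM in K3R3, against 38.6 and 42.8 CPM), and 0 lay below both. The 4 mesoderm markers summed to 14.9 CPM in K3R3, against 11.8 and 8.66 CPM in WT. By edgeR's test 2 ES cell and 2 primitive endoderm markers fell, 1 fibroblast and 1 mesoderm marker rose, and 0 neural markers were called. Among all tested genes 0.542% were called lower and 2.02% higher. In K3R3, 5 ES cell markers lay below both WT libraries and 1 above, and 3 mesoderm markers lay above both and 1 below. Of the fibroblast markers 8 lay above both and 0 below, and of the primitive endoderm markers 5 lay below both and 0 above. Cubn, an endoderm marker, stood at 18.2 CPM in K3R3, against 88.3 and 73.6 CPM in WT. The part of these marker differences in the results on histone genes was not tested, and in bulk RNA fewer cells of a type and less RNA per cell cannot be told apart.

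Levels of different genes are compared on the deposited RPKM scale (reads scaled to gene length and to the total of the library). By the mean RPKM level over the 3 libraries the order ran H3f3b, H2afz, H3f3a, H2afy, H2afx, H2afv, H1f0, H2afy2, H2afj and H1fx. The spread was wide, from 206 RPKM for H3f3b down to 0.147 RPKM for H1fx. Neighbours whose RPKM ranges over the libraries overlapped were H2afy with H2afx and H2afy2 with H2afj, and all other neighbours were separate in range. H2afy stood above H2afx within each library, whereas the order of H2afy2 and H2afj was not the same in all libraries. The order was the same in K3R3 and in WT replicate 2, and in WT replicate 1 H2afj stood ahead of H2afy2.

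**Figure D1:**
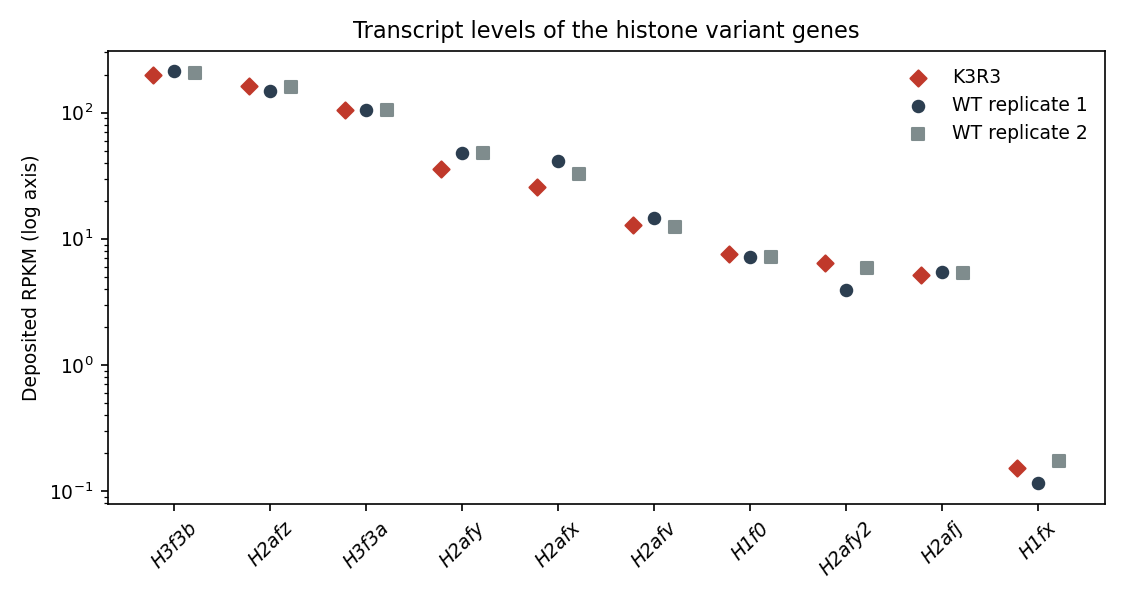
Deposited RPKM on a log axis for each of the 10 histone variant genes, with 1 point per library (diamond K3R3, circle WT replicate 1, square WT replicate 2) and the genes ordered by their mean over the 3 libraries. H3f3b, H2afz and H3f3a lie above 100 RPKM in all 3 libraries, H1fx lies below 0.2 RPKM, and K3R3 sits visibly below both WT points for H2afy and H2afx.

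K3R3 was then set against WT for each member. Of the 9 members tested, 0 were called by edgeR's quasi-likelihood test, against 2.57% of all genes tested. DESeq2 called 0 as well, beside 59 of all 13829 genes tested. At an unadjusted p under 0.05 there were 2, H2afx and H2afy, both lower in K3R3, in edgeR as in DESeq2, where 11.2% of all tested genes had such a p in edgeR in either direction and 3.33% had one with a lower level in K3R3. The 95% interval of the difference lay within 2-fold either way for 8 of the 9, the exception being H2afx. None of the 9 stood 2-fold away from both WT libraries, a distance that 0.593% of tested genes showed downwards and 5.49% upwards. H1fx had too few counts to be tested.

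By TMM-normalised CPM (counts scaled to library size after trimming genes that differ most), 7 of the 9 tested members lay below both WT libraries in K3R3, 1 lay above both (H2afy2) and 1 between them (H2afz). Among all tested genes 34.2% lay below and 33.9% above both. With library totals implied by the deposited RPKM values, 4 members lay below, 3 above and 2 between, beside 19.2% of genes below and 48.7% above. That scaling moves the median of all tested genes up by 0.12 on the log2 scale. The median log2 difference of the 9 members was -0.19, against -0.01 over all tested genes, and with the implied totals the values were -0.06 for the members and 0.11 over all tested genes.

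**Figure D2:**
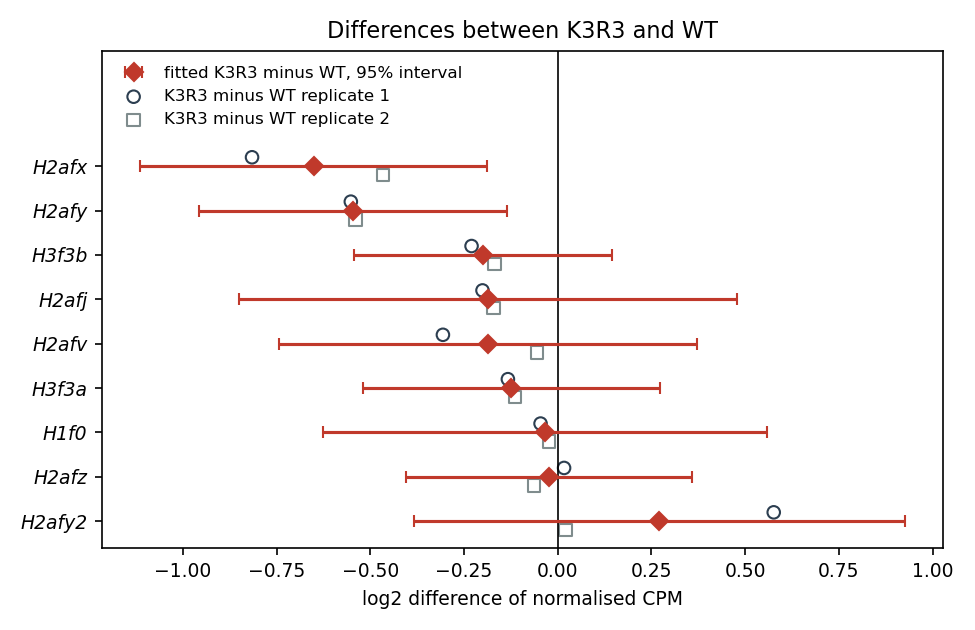
Log2 difference of normalised CPM for the 9 tested histone variant genes, as the fitted value of K3R3 minus WT with its 95% interval (filled diamond, bars) and as K3R3 minus each WT replicate (open symbols, no test). The intervals of H2afx and H2afy lie below 0, and the other 7 include 0.

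H2afz encodes H2A.Z.1, the form of H2A.Z that the transgene supplies. It stood at 164 RPKM in K3R3, against 147 and 158 RPKM in the WT libraries. In normalised CPM the K3R3 library, at 222, lay between the WT libraries, at 219 and 232. The fitted log2 difference was -0.02 (SE 0.19, 95% interval -0.41 to 0.36), with an edgeR adjusted p of 1.00. The difference turned to 0.10 with the implied totals, so its direction rests on the scaling. Since hairpin and transgene were present in all libraries, this level checks neither the knockdown nor the labels.

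H2afv encodes H2A.Z.2, the paralogue of H2A.Z.1 that neither hairpin matches. It stood at 12.95 RPKM in K3R3, against 14.6 and 12.4 RPKM in WT, so that on the RPKM scale the K3R3 level lay between the WT levels. In normalised CPM it was 30.0 in K3R3, against 37.1 and 31.2 in WT, below both. Its fitted log2 difference was -0.19 (95% interval -0.74 to 0.37) and the difference between the WT libraries was -0.25, replicate 2 minus replicate 1. A lower or higher H2afv level in K3R3 was therefore not separated from the spread between WT libraries.

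A ratio within a library does not depend on how libraries are scaled against each other, so each pair of genes for a variant was also expressed as shares of the pair's summed RPKM. H2afz made up 92.7% of the H2A.Z pair in K3R3 (exact 95% interval 92.1% to 93.2%), against 91.0% (90.3% to 91.6%) and 92.7% (92.2% to 93.2%) in the WT libraries. These intervals are Clopper-Pearson intervals on the counts and cover counting error only. The K3R3 share was 0.04 percentage points from that of WT replicate 2, while the WT libraries were farther apart. All libraries held over 10 times as many H2afz as H2afv transcripts per length, with RPKM ratios of 12.6 in K3R3 and of 10.1 and 12.7 in WT.

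H2afx encodes H2A.X, whose tail is phosphorylated around DNA double-strand breaks. It had the lowest fitted difference of the members. The RPKM level was 25.7 in K3R3, against 41.2 and 32.8 in WT, so the K3R3 library was the lowest and the WT libraries themselves lay apart. In normalised CPM these were 49.4 in K3R3 and 87.0 and 68.2 in WT. On the log2 scale the fitted difference was -0.65 (SE 0.24), which is a 0.637-fold level with a 95% interval of 0.462 to 0.877. Its unadjusted p was 0.00719 and its adjusted p in edgeR 0.14, so it was not called. Against replicate 1 alone the log2 difference was -0.82, against replicate 2 alone -0.47, and between the WT libraries -0.35. The adjusted p lay between 0.13 and 0.54 over the other settings tried.

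H2afy encodes macroH2A1, a variant with a macrodomain that binds ADP-ribose metabolites in one splice form. Its RPKM level was 35.7 in K3R3, against 47.7 and 48.0 in WT, and the WT libraries nearly coincided. The log2 differences against the WT replicates were -0.55 and -0.54, while the WT libraries differed by -0.01. The fitted value was -0.55 (SE 0.21), a 0.685-fold level with an interval of 0.515 to 0.911. With an unadjusted p of 0.0109 and an edgeR adjusted p of 0.19 it was not called, and over the other settings the adjusted p lay between 0.17 and 0.55. The test took its spread from the trend over genes of like expression, so the closeness of the WT values for this gene did not enter its p. With the implied totals the log2 differences of H2afx and H2afy were -0.53 and -0.42, still below 0.

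H2afy2 encodes macroH2A2 and was the single member with the class code for bivalent, the class of genes whose promoters carry an activating and a Polycomb mark together in ES cells. The other 9 members had the code for active. H2afy2 stood at 6.41 RPKM in K3R3, against 3.91 and 5.84 RPKM in WT. K3R3 was the highest library, but it was close to WT replicate 2, and the low value was that of WT replicate 1. The fitted log2 difference was 0.27 (SE 0.33, 95% interval -0.38 to 0.93), with 0.58 against replicate 1 alone and 0.02 against replicate 2 alone. Between the WT libraries it was 0.56, which is more than the fitted difference. The median over the 1671 tested bivalent genes was 0.65, with quartiles of 0.15 and 1.24, so H2afy2 lay between these quartiles. H2afy2 overlaps Aifm2 on the other strand, a gene with 261 counts in K3R3, against 264 and 278 in WT.

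Within the macroH2A pair, H2afy2 contributed 15.2% of the summed RPKM in K3R3 (13.9% to 16.5%), against 7.58% (6.69% to 8.54%) and 10.8% (9.89% to 11.9%) in the WT libraries. The share of H2afy2 was thus highest in K3R3, with a counting interval apart from those of both WT libraries, which were also apart from each other. As log2 ratios of H2afy to H2afy2 these are 2.48 in K3R3 and 3.61 and 3.04 in WT. K3R3 differed from the WT mean by -0.84 and WT replicate 2 from replicate 1 by -0.57. With 1 library against 2 an exact permutation test could not pass the threshold, and none is given. The pair's summed level was 42.1 RPKM in K3R3, against 51.6 and 53.8 RPKM in WT.

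H2afj encodes H2A.J, an H2A form described in human senescent fibroblasts. It stood at 5.18 RPKM in K3R3, against 5.43 and 5.40 RPKM in WT. Its log2 difference was -0.19 in the fit (95% interval -0.85 to 0.48). K3R3 lay below both WT libraries, but the interval is among the widest of the members. H2afj had 349 counts in K3R3 and 324 and 375 in WT. The width of its interval follows mainly from the trend of spread over genes of like expression.

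Summed over the 6 H2A variant genes the level was 250 RPKM in K3R3, against 260 and 263 RPKM in WT. H2afz accounted for 65.6% of this sum in K3R3, against 56.6% and 60.2% in WT. The shares of H2afx were 10.3% in K3R3 and 15.8% and 12.5% in WT, and those of H2afy were 14.3% in K3R3 and 18.3% and 18.3% in WT. The sum over the H2A variants therefore contained a higher share of H2afz and lower shares of H2afx and H2afy in K3R3 than in either WT library, with a difference of 3.58 percentage points in the H2afz share between the WT libraries themselves. These shares are parts of the same sum, so lower shares of some genes raise those of others. H2afz itself lay above both WT libraries in RPKM but between them in normalised CPM.

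**Figure D3:**
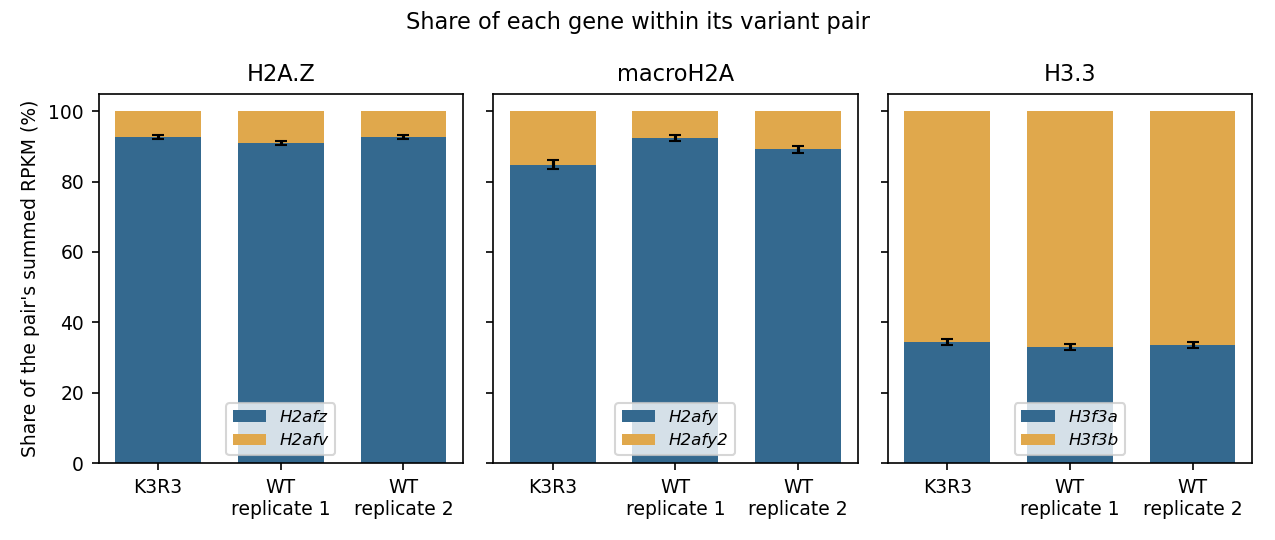
Share in percent of each gene in the summed RPKM of its variant pair (H2A.Z, macroH2A, H3.3), as stacked bars for K3R3, WT replicate 1 and WT replicate 2, with black bars for the exact 95% interval from counting error. The H2afy2 share is 15.2% in K3R3, against 7.58% and 10.8% in WT, while H2A.Z and H3.3 shares differ by a few percentage points at most.

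H3f3a and H3f3b encode the same H3.3 protein from separate genes. H3f3b, the highest of all members, stood at 198 RPKM in K3R3, against 212 and 206 RPKM in WT. Its fitted log2 difference was -0.20 (SE 0.18, 95% interval -0.54 to 0.14). H3f3a stood at 104 RPKM in all 3 libraries, with a lowest value of 104.0 and a highest of 104.2. Its ratio of highest to lowest RPKM, 1.002, was the smallest of the members. Its fitted log2 difference was -0.12 (95% interval -0.52 to 0.27) by TMM scaling and 3.77e-05 with the implied totals, by which RPKM itself is scaled. H3f3a supplied 34.4% of the H3.3 pair in K3R3 (33.6% to 35.2%), against 32.9% (32.1% to 33.7%) and 33.6% (32.8% to 34.3%) in WT, so the counting interval of K3R3 overlapped with those of both WT libraries. Together the pair summed to 303 RPKM in K3R3, against 316 and 310 RPKM in WT.

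Both linker histone genes lay below H2afv in RPKM level. H1f0 encodes H1.0, the linker histone known to accumulate in cells that stop dividing or differentiate. It stood at 7.62 RPKM in K3R3, against 7.17 and 7.16 RPKM in WT, above both on that scale, and at 24.7 CPM in K3R3, against 25.5 and 25.1 CPM in WT, below both by TMM. In the fit the log2 difference was -0.03 (95% interval -0.63 to 0.56), and it was 0.089 with the implied totals, so its sign depended on the scaling. H1fx encodes H1x and was listed with 6 counts in K3R3, against 4 and 7 counts in WT. Its K3R3 level was 0.961 times that of the pooled WT libraries, with an exact conditional 95% interval of 0.292 to 2.83 from counting error, so a change of 2-fold was not detectable at this depth. In the GENCODE M21 annotation H1fx lies opposite Gm5577, which had 14 counts in K3R3, against 26 and 23 in WT, and without a stated strand setting the reads of these genes cannot be told apart.

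**Figure D4:**
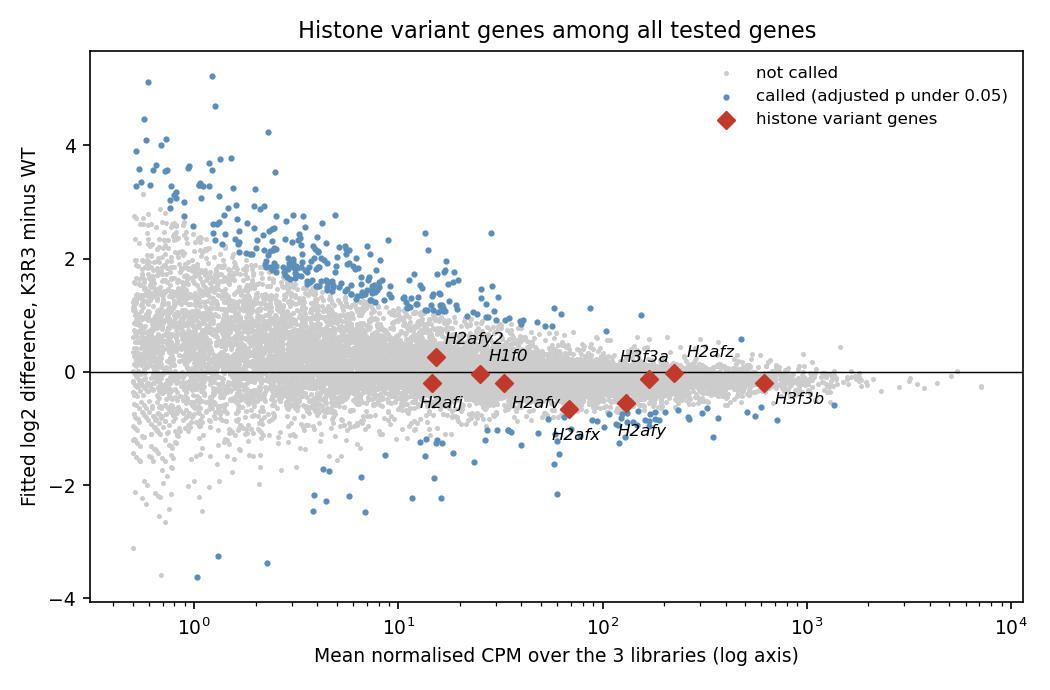
Fitted log2 difference of K3R3 minus WT against mean normalised CPM (log axis) for the 13829 tested genes, with called genes in blue, genes not called in grey and the 9 tested histone variant genes as red diamonds. None of the 9 is called, and H2afx and H2afy lie lowest.

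In the authors' deposited table the unadjusted p-values were 0.0238 for H2afy and 0.0717 for H2afx, and the other 8 members had values between 0.356 and 1. The header of that table puts K3R3 before WT, but for all 1976 genes whose depth-scaled counts differed by over 2-fold its log2 sign was opposite to K3R3 minus WT. Its log2 values for H2afy and H2afx, 0.56 and 0.66, thus stand for lower levels in K3R3 if the count columns are named correctly.

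The profile of a member over 3 libraries is shared by many genes, and likeness is given only as a description. Among 1911 genes with a mean level within 2-fold of H2afz, the smallest Euclidean distances between centred log2 CPM profiles were those of Braf (0.0037), Fgfr1op (0.0044) and Isg20l2 (0.0050). For H2afx, among 3482 genes, they were those of Tubb2b (0.0096), Akap2 (0.038) and Manba (0.042). Tubb2b, a beta-tubulin gene, stood at 41.5 CPM in K3R3, against 73.8 and 57.7 CPM in WT. That it shares the order of the libraries with H2afx follows from its choice by likeness.

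Histone chaperones escort histones to and from DNA, and the supply factors on the same list include genes that process replication-dependent histone mRNA. Of the 36 genes on the list 35 had a row and were tested. By edgeR's quasi-likelihood test 0 rose and 0 fell, against 2.57% of all tested genes called. At an unadjusted edgeR p under 0.05 there were 0, beside 11.2% of all tested genes. DESeq2 called 0, beside 59 of all 13829 genes tested. The log2 differences of the 35 ran from -0.41 to 0.15 with a median of -0.09. By TMM 17 lay below (48.6%) and 4 above (11.4%) both WT libraries in K3R3, beside 34.2% and 33.9% of all tested genes. With the implied totals 10 lay below and 12 above, beside 19.2% and 48.7% of all tested genes. The genes with the greatest absolute difference were Lsm11, a part of the U7 particle that cuts histone mRNA (-0.41, SE 0.35), the nucleoplasmin Npm3 (-0.29), the H3.3 chaperone subunit Ubn2 (-0.27) and Hjurp, which loads the centromeric H3 form (-0.26), none of them called. Lsm11, for example, stood at 11.0 CPM in K3R3, against 13.3 and 16.0 CPM in WT.

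Of 13 further variant histone genes 3 had a row, Cenpa, Hist3h2a and Hist3h2ba. Cenpa and Hist3h2a were tested and neither was called, while Hist3h2ba lay under the minimum level. Hist3h2a and Hist3h2ba, both of the Hist3 cluster, also count among the 15 replication-dependent genes described next, which were taken by the start of their symbols. Cenpa, which encodes the centromeric H3 form, stood at 64.0 RPKM in K3R3, against 74.2 and 69.3 RPKM in WT, with a fitted log2 difference of -0.29 (SE 0.21). Its K3R3 level was below both WT levels. Hist3h2a, an H2A gene, had 27 counts in K3R3, against 47 and 54 in WT, or 1.04 CPM, against 2.24 and 2.18 CPM. Its K3R3 level was also below both WT levels, with a fitted log2 difference of -1.08 (SE 0.68, 95% interval -2.42 to 0.25) and an edgeR adjusted p of 0.68.

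Replication-dependent histone genes supply histones in S phase, and their mRNA normally ends in a stem-loop without a poly(A) tail, so oligo(dT) selection leaves little of it. The table had 15 such genes, and 8 of them lay under the minimum level. Of the 7 tested, 1 fell and 0 rose by edgeR's quasi-likelihood test, beside 0.542% of all tested genes lower and 2.02% higher. DESeq2 called 0, beside 59 of all 13829 genes tested. The gene that fell was Hist1h2bc, an H2B gene. It had 46 counts in K3R3, against 146 and 124 in WT, or 1.77 CPM, against 6.95 and 5.00 CPM. The fitted log2 difference was -1.75 (SE 0.48; edgeR adjusted p = 0.0282), and DESeq2 gave -1.75 with an adjusted p of 0.35, so the call was edgeR's alone. In the K3R3 library the level lay below both WT levels by a wider margin than the WT levels lay apart.

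The other genes named from this list were not called. Hist1h1c, a linker H1 gene, had 35 counts in K3R3, against 84 and 60 in WT (log2 -1.25). Hist1h4i, an H4 gene, had 21 counts in K3R3, against 57 and 38 in WT (log2 -1.38). Hist2h3c1, an H3 gene, had 8 counts in K3R3, against 9 and 60 in WT, so the value of -2.21 rests on WT replicate 2, and without that library it was -0.43. Hist2h3c1 also passed the minimum level through that library alone. Of the 7 genes 6 lay below both WT libraries by TMM, beside 34.2% of all tested genes, and 5 with the implied totals, beside 19.2%. Hist2h3c1 is among the 6. The median log2 difference of the 7 tested genes was -1.25. Among the 8 genes under the minimum level, Hist1h2ac and Hist2h2bb lay above both WT libraries by TMM and Hist1h2be and Hist4h4 between them. Hist1h1b, Hist1h3g, Hist2h3c2 and Hist3h2ba lay below both. Summed over all 15 genes the level was 9.33 CPM in K3R3, against 20.2 and 19.1 CPM in WT, and without Hist1h2bc it was 7.57 CPM in K3R3, against 13.3 and 14.1 CPM in WT. By TMM scaling the 10 variant genes summed to 1174 CPM in K3R3, against 1372 and 1334 CPM in WT. As a percentage of each library's counts in the table they made up 0.124% in K3R3, against 0.133% and 0.130% in WT. H3f3b, which was not called, was the largest part of the sum, with 560 CPM in K3R3, against 656 and 629 CPM in WT. How efficiently poly(A) selection worked in each library has no measure here, and its part in the lower replication-dependent levels was not tested.

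**Figure D5:**
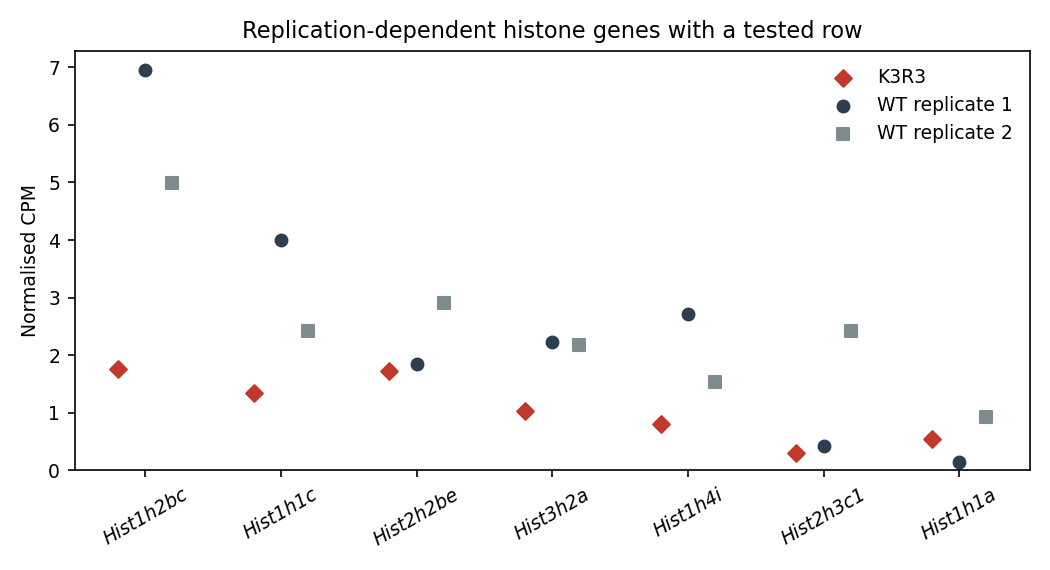
Normalised CPM of the 7 tested replication-dependent histone genes, with 1 point per library (diamond K3R3, circle WT replicate 1, square WT replicate 2), ordered by WT mean. K3R3 is the lowest library for all but Hist1h1a, and Hist1h2bc, at 1.77 CPM in K3R3 against 6.95 and 5.00 CPM in WT, is the gene that was called.

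Members share sequence with other annotated genes, some as near-identical copies elsewhere and some as overlapping genes on the opposite strand, which bears on what their counts hold. Of all windows of 36 bases in transcript H2afz-201, 75.2% also occurred in transcripts of 6 other genes, 4 of them with transcripts annotated as pseudogenes, and a retained-intron transcript of Tmcc1 alone held 61.3%, counting either strand. Both hairpin sequences occurred there and in Gm26623 on the opposite strand. For H3f3a 31.3% of windows of its longest coding transcript were shared, with 53 other genes, 50 of which have pseudogene transcripts. Gm17275, a gene on the opposite strand, held the most (21.7%). The H3f3a transcript used is 2841 bases long, against a deposited gene length of 1076 bases. H3f3b shared 11.9% of its windows. For H2afx the share was 10.8%, of which Hist1h2ab, a replication-dependent H2A gene, held the most (8.15%), and for H2afj 9.35%. For H2afy2 it was 21.96%, of which the processed pseudogene H2afy3 held the most (12.6%). H1fx shared 15.1% of its windows with Gm5577 alone, H2afy 10.1% and H1f0 6.34%, each with 1 antisense gene, and H2afv shared 0.438%. Annotated genes on the opposite strand overlap H2afx, H2afy, H2afy2, H2afj, H3f3a, H1f0 and H1fx, and none overlaps H2afz, H2afv or H3f3b. The read length and the treatment of reads with several matches are not given in the sources used here, so the level of each member is uncertain to the extent of its shared windows. For windows shared with an overlapping gene on the opposite strand, such as Gm17275 or Gm5577, it also depends on the strand setting, which is not given. The shared windows bear most on H2afz, H3f3a and H2afy2, and with H2afy2 on the shares within the macroH2A pair.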

How the data were processed

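The authors deposited read counts as integers, one row a gene, for 1 K3R3 and 2 WT libraries, and per the submitters' processing notes these were made with HTSeq 0.5.4p1 on mm9. Deposited beside them by the authors are RPKM values, in which a count is divided by the length of its gene and by a single library total. The table's counts were 67.1% of that total for K3R3 and 66.2% and 66.9% for WT. The deposited fold ratio, log2 value and unadjusted p-value come from the authors' comparison, for which those notes name DESeq 1.10.1. Aligner, annotation and strand setting are not given in the sources used here. In each library the smallest count was 1.

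edgeR 4.0.16 in R 4.3.3 was used for the tests. TMM factors came from all rows, genes with a mean CPM of 0.5 or more were kept, and K3R3 was set against WT by a two-sided quasi-likelihood test, Benjamini-Hochberg adjusted, at a threshold of 0.05. The WT libraries gave 1 residual degree of freedom, and the single K3R3 library was taken to vary as they do. The prior degrees of freedom came out infinite (p-values thus follow the trend of dispersion with expression). Differences against single libraries use log2 CPM with a prior count of 1 and have no test. The code was tested on simulated data. DESeq2 1.42.0, edgeR with DESeq2 size factors, totals implied by RPKM, no filter, a minimum mean CPM of 2, the likelihood ratio test and leaving out each WT library were the alternatives. The members and lists were chosen with earlier results of these data known. Named genes are all 10 members and, from each list, the called genes and the 4 with the greatest absolute log2 difference, plus the 3 genes nearest in profile to H2afz and to the member with the greatest difference. Binomial intervals were computed with scipy 1.17.1. Hairpins and windows were matched to GENCODE M21 transcripts (GRCm38), and no coordinate of the deposited build was used.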

Additional observations from a re-analysis of the deposited data

How the results depend on the processing

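Over the 6 other settings that gave a test, 0 members were called, in the fits with 13829 genes as in those without a filter or with a minimum mean CPM of 2. The fitted log2 differences of 3 members changed sign with the totals implied by RPKM: H2afz became 0.10, H1f0 0.089 and H3f3a 3.77e-05. The other members tested kept their direction in all 6 settings. DESeq2 called 59 genes over the whole table, against 355 by edgeR, and 0 genes of the chaperone and other histone lists, against 1. With it Hist1h2bc had a log2 difference of -1.75 and was no longer called. With the implied totals the number of genes below both WT libraries was 2660, against 4725. Without WT replicate 1 or 2, which left 1 library against 1 and no test, the log2 difference ran from -0.82 to -0.47 for H2afx, from -0.55 to -0.54 for H2afy, from 0.02 to 0.58 for H2afy2, from -0.31 to -0.06 for H2afv and from -0.06 to 0.02 for H2afz. The excess of the H2afz share within the H2A.Z pair, 0.82 percentage points over the WT mean, was -0.04 without WT replicate 1 and 1.68 without WT replicate 2. In the macroH2A pair the H2afy share of K3R3 minus that of the single WT library left ran from -7.63 to -4.36 percentage points. The order of levels was the same without division by gene length. No paired analysis was possible because K3R3 had 1 library with no replicate number. Depth limited H1fx, with 6 counts in K3R3 and 4 and 7 in WT, which was tested only without the filter, where its log2 difference was -0.05.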
